A study of Mus musculus with 21 samples.

Results

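RNA levels of 6 complement genes were followed in 21 cultures of mouse fibroblasts with and without intact Prrx1, a homeobox transcription factor of mesenchymal cells. The genes were chosen by symbol as the rows C3, C4B, CFB, SERPING1, CD55 and C1RA of the 3 count tables (written C4b, Cfb, Serping1, Cd55 and C1ra from here on, as is usual for mouse), and each was listed in every table, among 24447 genes common to all of them. The cultures form 7 groups of 3. Mouse embryonic fibroblasts (MEF, embryonic days 10 to 13) were wild type (WT), carried a Prrx1 mutant allele with a LacZ insertion (129S-Prrx1tm1Jfm/Mmmh, labelled KI), or had received a Prrx1 guide with Cas9 from a lentivirus (sgPrrx1). Wound-healing fibroblasts came from dorsal wounds on day 10, and cancer-associated fibroblasts (CAF) came from breast tumours of MMTV-PyMT mice, in which a viral promoter drives an oncogene in the mammary epithelium. Each of these was compared as WT, given as sgNS in the labels, and sgPrrx1. All cultures had been immortalised with the papillomavirus genes E6 and E7. MEF and wound-healing fibroblasts are labelled C57BL/6 and MMTV-CAF FVB/NJ, so the tissue, the strain and the culture line cannot be told apart when types are compared. The sources used here do not say whether a line was 1 clone or whether the 3 cultures of a group came from separate animals, so that p-values measure only the spread between these cultures.

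Complement is a cascade of plasma and cell surface proteins that marks particles for uptake, recruits leukocytes and opens pores in membranes. The classical pathway starts when C1q, carrying the proteases C1r and C1s, binds antibody or other surfaces. C1s then cleaves C4 and C2 into a convertase that cuts C3, the component on which all routes converge, while factor B (Cfb) forms the convertase of the alternative pathway. Brakes act at several steps. C1 inhibitor (Serping1) inactivates C1r and C1s, and CD55, also called decay-accelerating factor, takes convertases apart on the cell surface. The liver supplies most of the plasma proteins, and fibroblasts are a known local source of C3, C1r, C1s and C1 inhibitor.

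Prrx1 itself was examined first, because it checks the labels. Its level in CPM (counts scaled to library size, with TMM factors over all 21 cultures) was 190, 165 and 182 in WT MEF, 26.1, 20.5 and 19.6 in mutant MEF, and 126, 95.1 and 140 in sgPrrx1 MEF. WT and sgPrrx1 wound-healing fibroblasts had means of 147 ± 4.71 and 65.2 ± 0.617 CPM (SD, n = 3), and MMTV-CAF had 640 ± 4.23 and 307 ± 4.80 CPM. Prrx1 RNA was therefore lower in every Prrx1-loss culture than in any WT culture of its own cell type. The fall was smallest in sgPrrx1 MEF, with a log2 fold change of -0.60 (SE 0.14; edgeR, adjusted p = 0.0145), and an edited gene can still be transcribed, so RNA measures guide activity only in part. The libraries held 69588655 to 134790440 counts, and 3 counts corresponded to 0.0253 to 0.0425 CPM, averaged within a group.

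The fibroblast identity of the cultures was checked by 10 markers, led by Vim in WT and sgPrrx1 MEF and by a collagen gene or Fn1 in the other groups. Their summed level was 15716 CPM in WT, 11352 CPM in mutant and 13233 CPM in sgPrrx1 MEF. It went from 10596 CPM in WT to 6614 CPM in sgPrrx1 wound-healing fibroblasts and from 40977 to 20413 CPM in MMTV-CAF. Of the markers tested, 8 of 9 were lower in each MEF comparison, 9 of 10 in wound-healing fibroblasts and 8 of 10 in MMTV-CAF. Lum was at 0 in every culture of mutant MEF and of sgPrrx1 wound-healing fibroblasts. In the wound-healing comparison it passed the filter on low counts through WT alone and had to be lower. Of all genes, 30.5% and 22.8% were called lower in mutant and sgPrrx1 MEF, 39.3% in the wound-healing and 41.9% in the MMTV-CAF comparison. Of 12 leukocyte markers, Adgre1, Tyrobp, Cd3e and Ms4a1 were at 0 in all groups, and the list was led by Cd14, which fibroblasts also transcribe. The summed leukocyte level was 14.4 CPM in WT and 27.2 CPM in sgPrrx1 MMTV-CAF, where Cd14 itself went from 6.78 to 26.2 CPM. Of 4 leukocyte markers tested there, 1 was higher and 3 were lower, beside 41.2% and 41.9% of all genes. Among 9 epithelial markers Krt19 was the most abundant in every group. It averaged 217 CPM in mutant MEF against 12.2 CPM in WT MEF, and 0.185 CPM in sgPrrx1 against 53.6 CPM in WT MMTV-CAF, whereas Epcam was at 0 in both types. Of 5 epithelial markers tested in mutant MEF, 3 were higher and 2 lower, beside 29.4% and 30.5% of all genes. Of 7 endothelial markers, Kdr accounted for nearly all of the signal in wound-healing fibroblasts, with 290 CPM in WT and 143 CPM in sgPrrx1, and Pecam1 was at 0 there. The summed endothelial level was 8.67 CPM in WT, 1.69 CPM in mutant and 2.76 CPM in sgPrrx1 MEF, and went from 4.13 to 0.911 CPM in MMTV-CAF. The part of these markers in the results that follow was not tested, and in bulk RNA fewer cells of a kind and less RNA per cell cannot be told apart.

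Before any loss of Prrx1, the 3 WT cell types differed widely in complement RNA, and WT MMTV-CAF had the highest level of all 6 genes. All 6 genes differed between WT MMTV-CAF and WT MEF in the edgeR fit over all cultures, as did 76.1% of all genes tested, and all 6 differed between WT MMTV-CAF and WT wound-healing fibroblasts, against 76.8% of all genes. Cfb did not pass the filter in the MEF and wound-healing tables, nor Serping1 in the latter, and they entered this fit through groups in which they were high. Cd55 was at 0 in every WT wound-healing culture and likewise entered through groups in which it was high. These differences of Cfb and Serping1, and those of Cd55 from WT wound-healing fibroblasts, were thus fixed by the filter and are given as a description. So is that of Serping1 between WT wound-healing fibroblasts and WT MEF. On the log2 scale the excess over WT MEF was 2.50 for C3, 8.18 for C4b, 9.15 for Cfb, 3.73 for Serping1, 2.20 for Cd55 and 2.89 for C1ra. WT wound-healing fibroblasts and WT MEF differed at 4 of the 6 genes, with 77.4% of all genes called. Relative to WT MEF, C3 was lower by a log2 fold change of -3.52, Serping1 by -2.69 and Cd55 at least 82.3-fold, and C4b was higher by 1.88. C4b has a copy, C4a, and the split of C4 counts between them differed between groups, as described further on. With both summed the excess was 0.49 in WT wound-healing fibroblasts (edgeR, adjusted p = 0.00668) and 6.16 in WT MMTV-CAF (adjusted p = 5.07e-16). C1ra and Cfb did not pass between these types, with differences of -0.07 (95% interval -0.21 to 0.07; edgeR, adjusted p = 0.331) and -0.96 (-2.56 to 0.64; adjusted p = 0.249), the latter on at most 11 counts per culture. Without WT MEF culture 1 the C1ra difference was -0.15 (edgeR, adjusted p = 0.0123), and with its copy C1rb summed it was -0.15 (adjusted p = 0.0167).

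**Figure D1:**
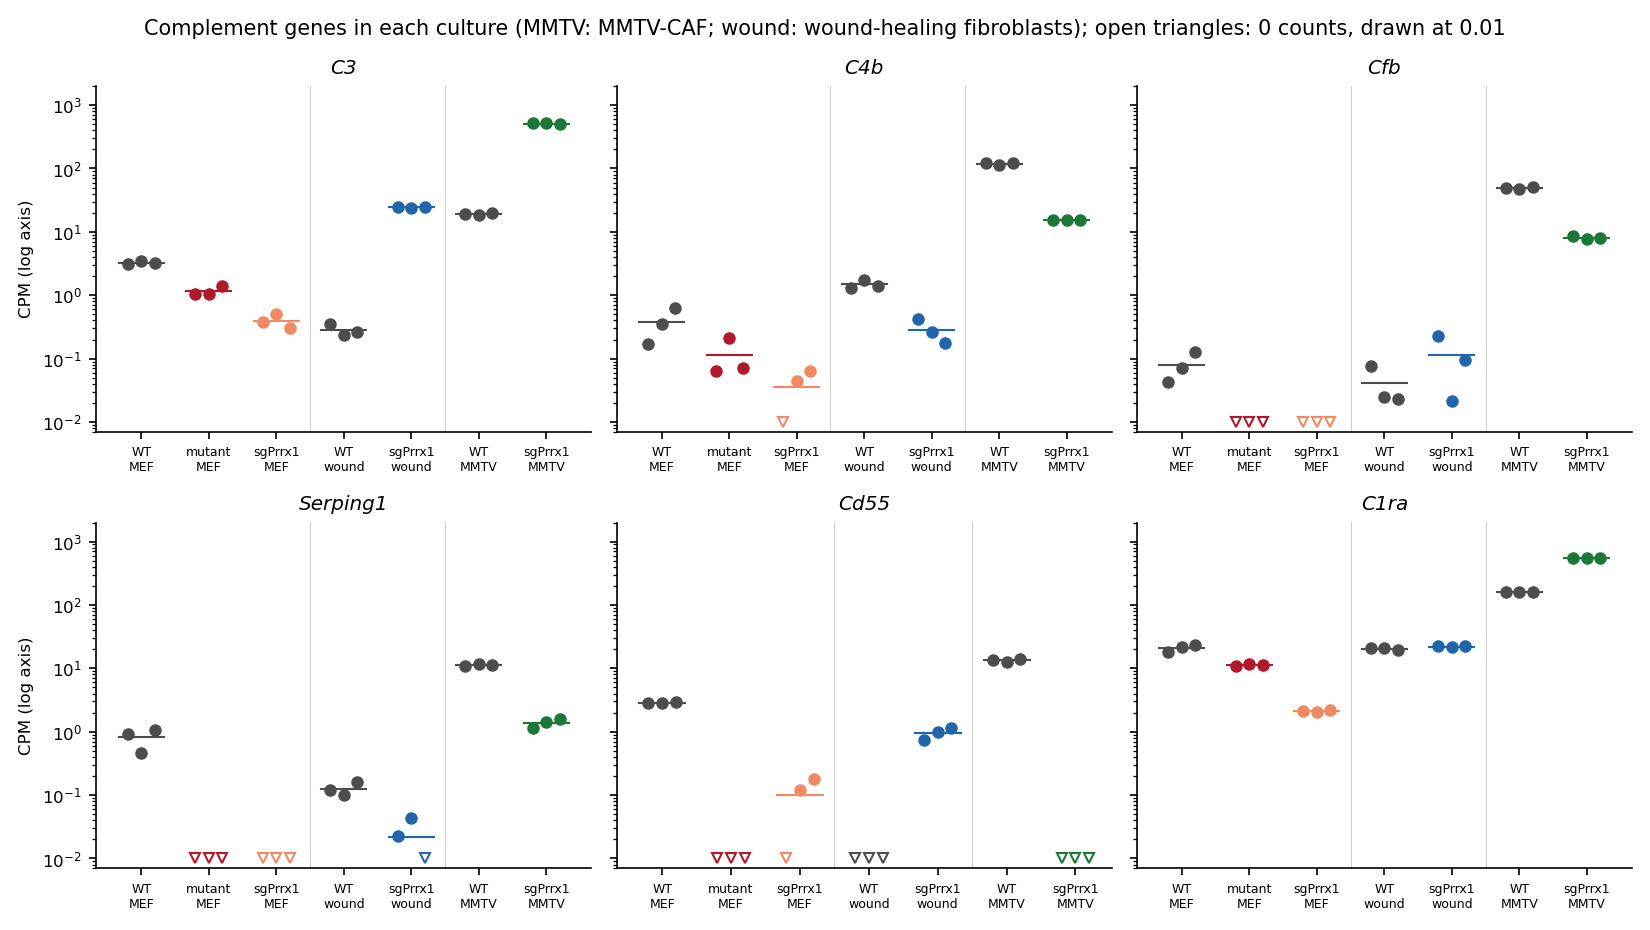
CPM (log axis) of C3, C4b, Cfb, Serping1, Cd55 and C1ra in each of the 3 cultures of every group, with the group mean as a line and cultures without a count as open triangles at 0.01. C3 and C1ra stand highest in sgPrrx1 MMTV-CAF, C4b, Cfb, Serping1 and Cd55 in WT MMTV-CAF, and Cd55 is at 0 in mutant MEF, WT wound-healing fibroblasts and sgPrrx1 MMTV-CAF.

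Divided by the length of the exons, levels can be set against each other between genes. C1ra was the most abundant of the 6 in all groups, at 7.07 CPM per kb in WT MEF, 6.81 in WT wound-healing fibroblasts and 53.7 in WT MMTV-CAF. In WT MMTV-CAF C4b followed at 20.9 CPM per kb and Cfb at 17.4, ahead of Serping1 at 4.82, C3 at 3.69 and Cd55 at 2.78. In sgPrrx1 MMTV-CAF the order was different, with C1ra at 183 and C3 at 99.5 CPM per kb, Cfb at 2.83, C4b at 2.702, Serping1 at 0.595 and Cd55 at 0. The summed level of the 6 genes went from 373 to 1085 CPM in MMTV-CAF and from 22.4 to 47.8 CPM in wound-healing fibroblasts, but was 28.6 CPM in WT MEF, 12.5 CPM in mutant MEF and 2.66 CPM in sgPrrx1 MEF.

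Each Prrx1-loss group was then compared with the WT cultures of its own cell type. In mutant MEF 4 of the 5 genes that passed the filter on low counts were lower at an adjusted p under 0.05 and none was higher, where 59.9% of all genes tested were called, 30.5% as lower and 29.4% as higher. Among these 4, Serping1 and Cd55 were at 0 in the mutant and passed the filter only through WT, so that they had to be lower, and C3 and C1ra remain. In sgPrrx1 MEF all 5 tested genes were lower, but Serping1, Cd55 and C4b, with at most 14 counts in any sgPrrx1 MEF culture, passed through WT alone, which again leaves C3 and C1ra. There 43.1% of all genes were called, 22.8% as lower and 20.3% as higher. In sgPrrx1 wound-healing fibroblasts C3, Cd55 and C1ra were higher and C4b was lower of the 4 tested, with 77.6% of all genes called, 38.3% as higher and 39.3% as lower, so that a call alone says little there, and Cd55 passed only through sgPrrx1. In sgPrrx1 MMTV-CAF all 6 genes changed, C3 and C1ra upward and the other 4 downward, with 83.1% of all genes called, 41.2% as higher and 41.9% as lower, and Cd55 passed only through WT. With a change of at least 2-fold also required, 24.1%, 10.6%, 15.6% and 24.3% of all genes were called in these 4 comparisons. C3 met that rule in each of them and C1ra in sgPrrx1 MEF and MMTV-CAF.

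The sizes of the changes are given as a description only, since a gene such as Cd55 or Serping1 that passed the filter through the group in which it was high had to differ. The median absolute log2 fold change of the tested genes was 1.73 in mutant MEF, 3.35 in sgPrrx1 MEF, 3.58 in sgPrrx1 wound-healing fibroblasts and 2.99 in sgPrrx1 MMTV-CAF, with a gene whose group was at 0 set at its bound of 3 counts. Over all genes tested the same medians were 0.52, 0.32, 0.37 and 0.49. The signed medians were -1.73, -3.35, 2.44 and -2.79, while those of all genes were within 0.01 of 0. The mutant and the sgPrrx1 MEF were compared with the same 3 WT cultures, and their changes are therefore not independent.

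**Figure D2:**
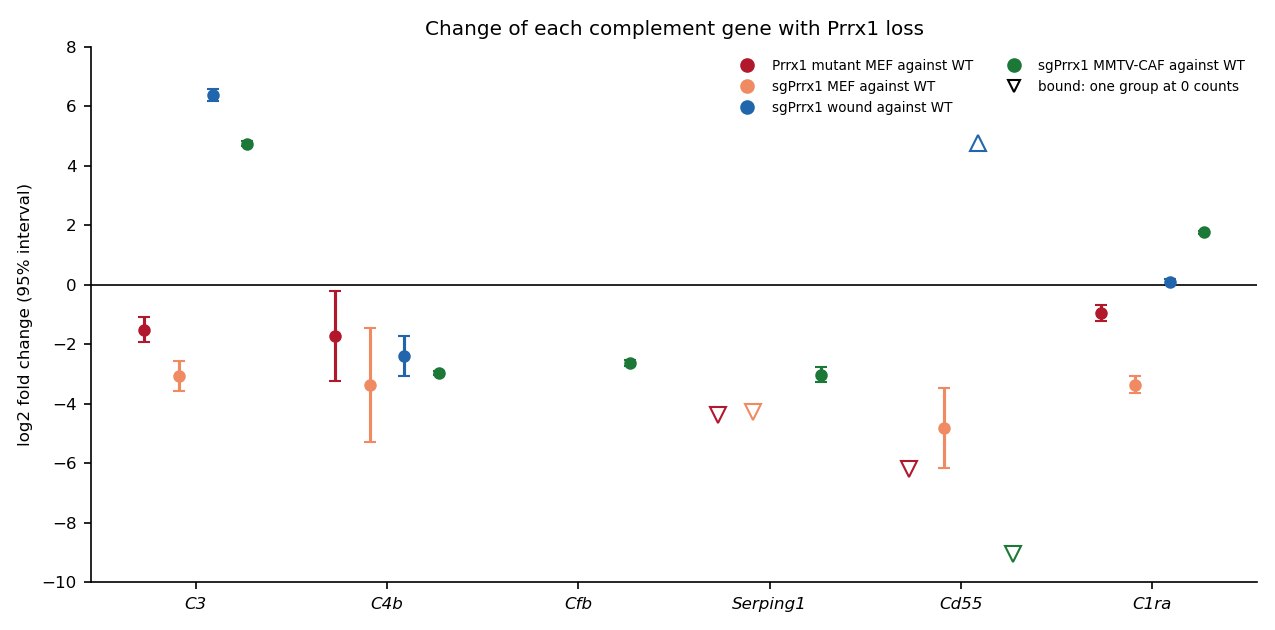
Log2 fold change of each gene against WT of the same cell type with its 95% interval, in mutant MEF, sgPrrx1 MEF, sgPrrx1 wound-healing fibroblasts and sgPrrx1 MMTV-CAF. Open triangles mark the bound where 1 group had 0 counts, and comparisons without a symbol did not pass the filter on low counts. C3 is below 0 in both MEF comparisons and above 0 in the other cell types, and C4b is below 0 in all 4.

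C3, the central component, moved in opposite directions in MEF and in the other cell types. Its level was 3.11, 3.50 and 3.17 CPM in WT MEF, 1.06, 1.05 and 1.42 CPM in mutant MEF, and 0.385, 0.503 and 0.309 CPM in sgPrrx1 MEF. The 3 groups did not overlap, and C3 fell 2.83-fold in mutant MEF (log2 fold change -1.50, SE 0.18; edgeR, adjusted p = 0.000425) and 8.35-fold in sgPrrx1 MEF (-3.06, SE 0.21; adjusted p = 8.33e-05). In wound-healing fibroblasts C3 was 0.350, 0.234 and 0.266 CPM in WT and 24.4, 24.1 and 24.2 CPM in sgPrrx1. The opposite direction was thus seen there, with a rise of 83.7-fold (6.39, SE 0.08; edgeR, adjusted p = 1.31e-10). MMTV-CAF moved the same way from a higher base, from 18.8, 18.2 and 19.8 CPM in WT to 520, 513 and 499 CPM in sgPrrx1, a rise of 26.9-fold (4.75, SE 0.04; edgeR, adjusted p = 3.95e-11). Ordered by mean, C3 was highest in sgPrrx1 MMTV-CAF, then in sgPrrx1 wound-healing fibroblasts, WT MMTV-CAF, WT MEF, mutant MEF, sgPrrx1 MEF and WT wound-healing fibroblasts. Only the last 2 groups of that order overlapped.

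C3 lies on chromosome 17 at chr17:57203967-57228136 on the minus strand (GRCm38.p6, the assembly also called mm10). The 150 bases just before its start in RefSeq, at chr17:57228137-57228286, are shown because C3 had the largest rise among the 6 genes with counts in both groups compared. The capitals mark the only match in the 300-base promoter window, from 250 bases before to 50 after the start, to any of 5 sets of letters searched on both strands (TTGCNNAA for C/EBP factors, TTCNNNGAA for STAT, GAAA, any 2 bases and GAAA for interferon-regulated factors, GGGA, any 2 bases and TTCC for NF-kB and TAATTA for homeodomains).
C3: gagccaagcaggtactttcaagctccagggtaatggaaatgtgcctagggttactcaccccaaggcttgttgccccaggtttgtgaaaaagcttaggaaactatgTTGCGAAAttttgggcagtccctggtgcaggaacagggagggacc
The match lies 45 to 38 bases before the start. TTGCNNAA is present in 10.8% of the 32851 RefSeq promoters of the same length, and the match describes letters, not binding.

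C1ra encodes C1r, the protease that starts the classical pathway, and per kb of exon was the most abundant of the 6 genes in all groups. Its level was 18.3, 22.0 and 23.5 CPM in WT MEF, 10.8, 11.5 and 11.4 CPM in mutant MEF, and 2.16, 2.03 and 2.18 CPM in sgPrrx1 MEF. It was lower with both kinds of Prrx1 loss, without overlap, 1.92-fold in the mutant (log2 fold change -0.94, SE 0.11; edgeR, adjusted p = 0.000397) and 10.2-fold with the guide (-3.35, SE 0.12; adjusted p = 8.13e-06). In wound-healing fibroblasts it was 20.99, 20.7 and 19.6 CPM in WT and 22.7, 21.5 and 22.2 CPM in sgPrrx1. The sgPrrx1 cultures were all higher, but by 1.07-fold only (0.10, SE 0.04; edgeR, adjusted p = 0.0409), and the call was lost under 5 other settings, among them DESeq2 (adjusted p = 0.0769), and without WT culture 2 or 3 or sgPrrx1 culture 1 or 3 (adjusted p from 0.0556 to 0.137). In MMTV-CAF it rose from 163, 161 and 159 CPM to 548, 556 and 545 CPM, which was 3.40-fold (1.77, SE 0.02; edgeR, adjusted p = 7.71e-11). The order of the means put sgPrrx1 and WT MMTV-CAF first, mutant and sgPrrx1 MEF last, and between them 3 groups, sgPrrx1 wound-healing fibroblasts, WT MEF and WT wound-healing fibroblasts, of which WT MEF overlapped both others.

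The 4 C1r and C1s genes are neighbours on chromosome 6, in the order C1ra, C1s1, C1rb and C1s2 over 123.5 kb, and those of them that were tested changed in 1 direction within each comparison. C1rb was tested only in MMTV-CAF. The 3 tested genes were lower in mutant MEF (log2 fold changes from -4.67 to -0.94) and in sgPrrx1 MEF (-4.75 to -3.35), the 3 tested genes were higher in wound-healing fibroblasts (0.10 to 0.97), and all 4 were higher in MMTV-CAF (1.75 to 1.97). In MEF C1s2 had 60, 49 and 74 counts in WT, 6, 8 and 0 in mutant and 6, 3 and 6 in sgPrrx1 cultures. It passed the filter there through WT alone and had to be lower, which leaves C1ra and C1s1. Of all genes, 30.5% and 22.8% were called lower in the MEF comparisons, and 38.3% and 41.2% higher in the other cell types. C1s1, which encodes the protease C1s, had 11.1, 10.5 and 7.81 CPM in WT MEF, 0.593, 0.350 and 0.217 CPM in mutant MEF, and 0.148, 0.533 and 0.425 CPM in sgPrrx1 MEF. It was more strongly reduced in mutant MEF than C1ra beside it, by -4.67 (SE 0.35; edgeR, adjusted p = 5.17e-05) against -0.94, a difference between genes that was not tested. In MMTV-CAF C1s1 rose from 110 CPM in each WT culture to 427, 432 and 438 CPM (1.97, SE 0.02; edgeR, adjusted p = 4.92e-11).

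Reads of C1ra and C1rb are difficult to separate, since 34% of the 100-base stretches of the C1ra transcript also occur in C1rb. C1rb had 237, 0 and 0 counts in WT MEF, and the 1 culture with counts had the lowest C1ra level of its group. In sgPrrx1 MEF it had 18, 0 and 0 counts, and there the culture with counts did not have the lowest C1ra level. With C1ra and C1rb summed, the log2 fold change of the pair was -1.02 in mutant MEF, -3.37 in sgPrrx1 MEF, 0.10 in sgPrrx1 wound-healing fibroblasts and 1.76 in sgPrrx1 MMTV-CAF, each with an adjusted p under 0.05 in edgeR. C1ra lies at chr6:124512621-124523440 on the plus strand. Its promoter window and that of C1rb share an identical 25-base stretch, printed because it holds the only matches in the C1ra window, with TTGCNNAA, read on the other strand, and TTCNNNGAA in capitals.
C1ra, bases 17 to 41 after the start, chr6:124512637-124512661: TTATGCAAatgcttcaTTCCCTGAA
C1rb, bases 135 to 111 before the start, chr6:124570295-124570319: TTATGCAAatgcttcaTTCCCTGAA
TTCNNNGAA is present in 8.30% of RefSeq promoters. The same letters lie after the listed start in one gene and before it in the other, so the annotated starts are not equivalent.

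C4b encodes C4, the substrate of C1s, and had lower counts with Prrx1 loss in all 3 cell types. MMTV-CAF had the most, with 121, 115 and 121 CPM in WT and 15.1, 15.5 and 15.6 CPM in sgPrrx1, a fall of 7.75-fold (log2 fold change -2.95, SE 0.03; edgeR, adjusted p = 1.01e-10). In wound-healing fibroblasts the level was 1.30, 1.75 and 1.40 CPM in WT and 0.415, 0.259 and 0.175 CPM in sgPrrx1 (-2.38, SE 0.30; edgeR, adjusted p = 8.31e-05). In MEF it rested on few counts, with 12, 25 and 55 in WT, 5, 18 and 5 in mutant and 0, 3 and 5 in sgPrrx1 cultures. The sgPrrx1 MEF lay below every WT culture (-3.35, SE 0.81; edgeR, adjusted p = 0.0154), whereas the mutant MEF overlapped WT and did not pass (-1.73, SE 0.64; adjusted p = 0.051). In both comparisons C4b passed the filter on low counts through WT alone, so these values are a description and no support for a fall. Both adjusted p-values lay near the threshold. For mutant MEF edgeR gave adjusted p = 0.0317 without WT culture 1, 0.0311 without mutant culture 2, 0.0498 with RLE scaling and 0.00429 in the model of all cultures, and for sgPrrx1 MEF 0.054 without its culture 2.

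C4b has a closely related copy, C4a, which RefSeq lists as a transcribed pseudogene on this assembly, and the share of C4 counts given to each differed between groups. How much sequence the copies have in common was not computed. C4a held 38.0% to 42.8% of the C4 counts in WT wound-healing fibroblasts and 87.8% to 94.0% in sgPrrx1, where its own level rose (1.46, SE 0.13; edgeR, adjusted p = 8.55e-06). C4a had 89, 87 and 82 counts in the WT and 267, 241 and 203 counts in the sgPrrx1 cultures. With the 2 copies summed, the change was 0.29 in wound-healing fibroblasts (edgeR, adjusted p = 0.0649) and -0.20 in sgPrrx1 MEF (adjusted p = 0.546), so the fall of C4b in these 2 comparisons is uncertain. In mutant MEF the sum gave -0.58 (edgeR, adjusted p = 0.071). In MMTV-CAF C4a held 5.63% to 11.9% and the sum still fell by 2.89 on the log2 scale (edgeR, adjusted p = 3.61e-10).

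Cfb, factor B of the alternative pathway, exceeded 1 CPM in MMTV-CAF only. It fell there from 49.9, 47.7 and 50.1 CPM in WT to 8.48, 7.58 and 7.95 CPM in sgPrrx1, which was 6.17-fold (log2 fold change -2.63, SE 0.05; edgeR, adjusted p = 1.26e-09). WT MEF had 3, 5 and 11 counts and no Cfb count was found in mutant or sgPrrx1 MEF. Wound-healing fibroblasts had 7, 2 and 2 counts in WT and 20, 2 and 7 in sgPrrx1, and these overlapped. In these other cell types Cfb did not pass the filter of its own table and its changes were not tested.

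Cfb and C4b belong to a stretch of 154 kb on chromosome 17 that also holds C4a and C2, between chr17:34728139 and 34882100, with Cfb at chr17:34856374-34862514 and C4b at chr17:34728139-34743902. In MMTV-CAF its 4 complement genes were all lower, from -8.17 for C2 to -2.25 for C4a. C2, the partner of C4 in the classical convertase, had 1781, 1826 and 2090 counts in WT and 12, 3 and 5 in sgPrrx1 MMTV-CAF (-8.17, SE 0.19). C2 passed the filter through WT alone and had to be lower, so its value is given without a test. This leaves C4b, C4a and Cfb. The 5 other tested genes of the stretch changed less, from -1.11 to -0.03, of which 4 passed as lower, where 41.9% of all genes did. Cfb and C2 are adjacent and the kit does not mark strand, so reads at their border cannot be assigned with certainty.

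**Figure D3:**
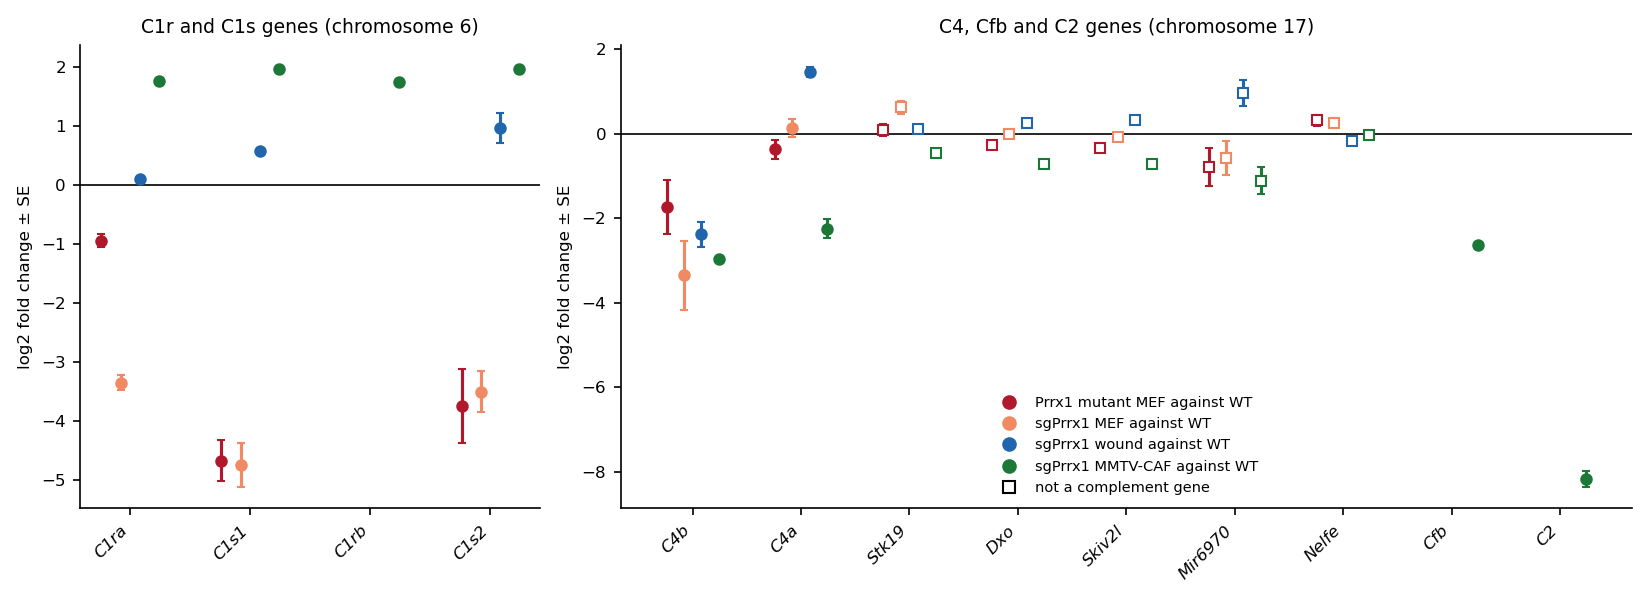
Log2 fold change ± SE of neighbouring genes, in chromosomal order, for the C1r and C1s genes of chromosome 6 and for the C4, Cfb and C2 stretch of chromosome 17, by comparison with WT of the same cell type. Filled circles are complement genes and open squares are other genes. The chromosome 6 genes lie below 0 in both MEF comparisons and above 0 in MMTV-CAF, and on chromosome 17 the complement genes of MMTV-CAF lie from -8.17 to -2.25 with the other genes between -1.11 and -0.03. The lowest of these, C2 in MMTV-CAF, passed the filter through WT alone.

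Serping1, which encodes C1 inhibitor, lies at chr2:84765360-84775444 and was tested in MEF and MMTV-CAF. Counts were 65, 33 and 92 in WT MEF and 0 in all 3 mutant and all 3 sgPrrx1 MEF cultures. Against a floor of 3 counts per library the level was at least 20.9-fold lower in mutant MEF and at least 19.2-fold lower in sgPrrx1 MEF, given without a test because the gene passed the filter through WT alone. MMTV-CAF had 10.9, 11.6 and 11.1 CPM in WT and 1.13, 1.41 and 1.61 CPM in sgPrrx1, a fall of 8.12-fold (log2 fold change -3.02, SE 0.11; edgeR, adjusted p = 5.1e-08). Wound-healing fibroblasts had 11, 8 and 14 counts in WT and 2, 4 and 0 in sgPrrx1, without overlap but too few for the filter. In sgPrrx1 MMTV-CAF the inhibitor was thus lower while its targets C1ra and C1s1 were higher.

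Cd55, at chr1:130429798-130465009, encodes the membrane protein that dissociates convertases, and was the gene most often at 0. It had 200, 196 and 259 counts in WT MEF, 0 in each mutant MEF culture, and 0, 8 and 14 in sgPrrx1 MEF. Mutant MEF were at least 73.5-fold lower than WT and sgPrrx1 MEF 28.1-fold lower (log2 fold change -4.81, SE 0.57). MMTV-CAF had 1452, 1450 and 1820 counts in WT and 0 in all 3 sgPrrx1 cultures, at least 534-fold lower. Wound-healing fibroblasts showed the reverse, with 0 counts in each WT culture and 66, 93 and 85 in sgPrrx1, at least 27.6-fold higher. In each of these comparisons Cd55 passed the filter only through the group in which it was high, so the values are given without a test. All cultures of a group shared the same state, present or at 0, except in sgPrrx1 MEF, where 1 of 3 was at 0. Cd55b, a related gene that shares 6.86% of the 100-base stretches of the Cd55 transcript, was at 0 in all 21 cultures.

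The difference between the change with sgPrrx1 in one cell type and in another was tested in a model of all 21 cultures. MMTV-CAF and wound-healing fibroblasts differed in the change of 4 of the 6 genes, where 63.0% of all genes did, wound-healing fibroblasts and MEF in 5 (55.6% of all genes), and MMTV-CAF and MEF in 4 (56.1%). Of the 5, Cfb had failed the filter in both of its own tables and Serping1 in that of the wound-healing fibroblasts, and both entered this model with the higher counts of MMTV-CAF, and Cd55 passed in each table only through the group in which it was high, so that C3 and C1ra remain. Cfb and Cd55 are likewise 2 of the 4 between MMTV-CAF and wound-healing fibroblasts, and Serping1 and Cd55 2 of the 4 between MMTV-CAF and MEF, where Serping1 passed the MEF table through WT alone, which leaves C3 and C1ra there too. The change in C3 was 9.45 higher on the log2 scale in wound-healing fibroblasts than in MEF (SE 0.19; edgeR, adjusted p = 4.7e-16) and 7.82 higher in MMTV-CAF than in MEF (SE 0.17; adjusted p = 1.06e-16). For C1ra the change was 3.44 higher in wound-healing fibroblasts and 5.13 higher in MMTV-CAF than in MEF, the reverse of the order for C3. The rise of C1ra was 1.68 larger in MMTV-CAF than in wound-healing fibroblasts (SE 0.09; edgeR, adjusted p = 2.49e-11). For C4b none of the 3 differences passed. They were -0.57 between MMTV-CAF and wound-healing fibroblasts (95% interval -1.43 to 0.29; adjusted p = 0.241, and 0.0395 with only these 4 groups in the edgeR model), 1.01 between wound-healing fibroblasts and MEF (-0.72 to 2.74) and 0.44 between MMTV-CAF and MEF (-1.15 to 2.03), which leaves room for sizeable differences. With C4a and C4b summed these differences were -3.17 (edgeR, adjusted p = 1.07e-10), 0.49 (adjusted p = 0.0641) and -2.68 (adjusted p = 3.77e-09), so that 2 of them then passed and the last was of the opposite sign.

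In MEF the 2 kinds of Prrx1 loss could also be compared directly, although the guide left far more Prrx1 RNA than the mutant allele. C3 was lower in sgPrrx1 than in mutant MEF by a log2 fold change of -1.56 (SE 0.26; edgeR, adjusted p = 0.00228) and C1ra by -2.41 (SE 0.09; adjusted p = 4.03e-06), while Prrx1 was higher by 2.44. These 2 genes were called where 56.2% of all genes were, 28.4% as lower, and the other 4 did not pass the filter. The group with more Prrx1 RNA therefore had less C3 and less C1ra.

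Beyond the 6 genes, 50 further genes of the complement system were listed by role. Of these, 18 were tested in each MEF comparison, 19 in sgPrrx1 wound-healing fibroblasts and 24 in sgPrrx1 MMTV-CAF. In mutant MEF 3 were higher, 8 lower and 7 did not pass (61.1% called, against 59.9% of all genes), and in sgPrrx1 MEF 2 were higher, 7 lower and 9 did not pass (50.0% against 43.1%). In wound-healing fibroblasts 8 were higher and 8 lower (84.2% against 77.6%), and in MMTV-CAF 9 were higher and 11 lower (83.3% against 83.1%). Some of these calls were fixed by the filter, and the counts are given as a description. At least C1s2 in MEF and C2, Cd59a, Cd59b and Csmd1 in MMTV-CAF passed it through WT alone. Fcna in wound-healing fibroblasts passed it through sgPrrx1 alone. The share of all genes called in sgPrrx1 MEF was 28.2% without WT MEF culture 2 and 28.1% without sgPrrx1 MEF culture 2. The median log2 fold changes of these genes were -0.43, -0.67, -0.31 and -0.15, beside medians of all genes within 0.01 of 0. C1q genes (C1qa, C1qb, C1qc), mannose-binding lectins (Mbl1, Mbl2) and the pore components C6, C8a and C8b were at 0 in all cultures, while RNA of C1r and C1s, which attach to C1q, was present.

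Among the initiators of the classical and lectin pathways, 4 of 7 tested were lower and 1 was higher in mutant MEF (30.5% and 29.4% of all genes), and 4 of 7 were lower and none higher in sgPrrx1 MEF (22.8% and 20.3%). C1s2, among the lower genes in both, passed the filter through WT alone. In wound-healing fibroblasts 4 were higher and 3 lower of 7, where 77.6% of all genes were called. Fcna, among the higher genes, passed the filter through sgPrrx1 alone and had to be higher. Among the lower genes Masp1, a protease of the lectin pathway, fell from 44.0, 42.7 and 44.8 CPM in WT to 2.64, 3.21 and 3.34 CPM in sgPrrx1 (-3.86, SE 0.07; edgeR, adjusted p = 7.43e-10). In MMTV-CAF 5 of 9 initiators were higher and 3 lower, where 83.1% of all genes were called, and C1s2 (1.97, SE 0.04) and C1rb (1.75, SE 0.02) rose beside C1s1 and C1ra, C1rb missing the threshold in the model of all cultures (edgeR, adjusted p = 0.056). C2, among the lower genes, passed the filter through WT alone.

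Among the regulators, Cd59a, which blocks the membrane pore, was lower in all 4 comparisons, and in MMTV-CAF went from 7.85, 8.63 and 9.002 CPM to 0.0446, 0.0814 and 0.0626 CPM (-7.03, SE 0.15). In MMTV-CAF Cd59a passed the filter through WT alone and had to be lower, so the value is given without a test. In MMTV-CAF 6 of 9 tested regulators were lower and 3 were higher, beside 41.9% and 41.2% of all genes. Of the lower ones at least Cd59a, Cd59b and Csmd1 passed the filter through WT alone and had to be lower. The count is thus a description and no excess of falls can be read from it.

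Clu, which encodes clusterin, an inhibitor of pore assembly, fell in sgPrrx1 MEF (-2.62, SE 0.26; edgeR, adjusted p = 0.000438). In mutant MEF Clu did not pass (0.45, SE 0.20; edgeR, adjusted p = 0.0974). C1qbp, a mitochondrial protein that can bind C1q, was higher in both MEF comparisons, by 0.56 (SE 0.10; edgeR, adjusted p = 0.00313) and 0.67 (SE 0.08; adjusted p = 0.000933). Cr1l, a membrane regulator of C3 convertases, was higher in sgPrrx1 MEF by 0.45 (SE 0.14; edgeR, adjusted p = 0.0351), a call lost without WT culture 1 or 2 or sgPrrx1 culture 2 or 3 (adjusted p from 0.0714 to 0.101). The changes in C1qbp and Cr1l were under 2-fold.

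Few receptors passed the filter. C3ar1, the receptor of the C3a fragment, was lower in mutant MEF (-1.86, SE 0.28; edgeR, adjusted p = 0.00128) and higher in sgPrrx1 wound-healing fibroblasts (0.83, SE 0.07; adjusted p = 9.59e-06). In sgPrrx1 MEF it did not pass (0.0045, SE 0.23; edgeR, adjusted p = 0.989). In MMTV-CAF, where C3 rose, C3ar1 fell from 3.99, 3.32 and 3.91 CPM to 0.936, 0.718 and 0.697 CPM (-2.26, SE 0.15; edgeR, adjusted p = 1.9e-06). Itgb2, the beta chain of complement receptor 3, fell in wound-healing fibroblasts (-2.11, SE 0.17; edgeR, adjusted p = 4.26e-06), and Cd93, a receptor once taken for that of C1q, was 0.71 higher in mutant MEF (SE 0.25; adjusted p = 0.0433), a call lost without either WT culture 1 or 2 or any 1 of the mutant cultures (adjusted p from 0.0652 to 0.124).

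**Figure D4:**
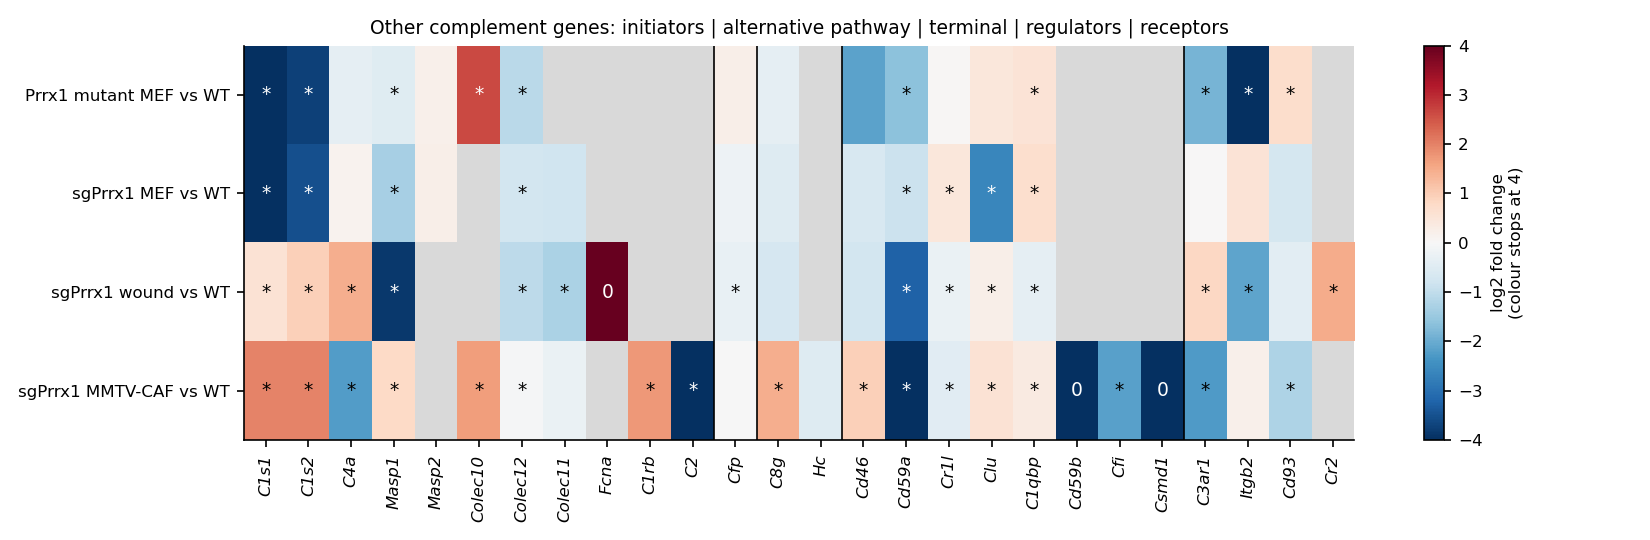
Log2 fold change (colour, limited at 4 in either direction) of further complement genes tested in at least 1 of the 4 comparisons with WT, ordered by role. An asterisk marks an edgeR adjusted p under 0.05, a 0 a called gene with 1 group at 0 counts, and grey a gene that did not pass the filter. C1s1 and C1s2 are blue in both MEF comparisons and red in wound-healing fibroblasts and MMTV-CAF, and Cd59a is blue in all 4.

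Complement genes are known targets of interferon, interleukin-6, interleukin-1 and NF-kB signals, and 22 genes of these routes were therefore listed. In mutant MEF 7 were higher and 7 lower, in sgPrrx1 MEF 2 higher and 11 lower, in wound-healing fibroblasts 6 higher and 12 lower, and in MMTV-CAF 11 higher and 9 lower. The shares called, 63.6%, 59.1%, 81.8% and 90.9%, stand beside 59.9%, 43.1%, 77.6% and 83.1% of all genes. The interferon-regulated factor Irf7 had the largest fall in both MEF comparisons, with -1.94 in mutant (SE 0.13; edgeR, adjusted p = 3.37e-05) and -3.36 in sgPrrx1 MEF (SE 0.09; adjusted p = 4.25e-06). Irf1 was lower in mutant MEF (-1.81, SE 0.14; edgeR, adjusted p = 6.15e-05) and Irf9 in sgPrrx1 MEF (-1.82, SE 0.10; adjusted p = 3.53e-05). Receptor subunits were higher, namely Il1r1 (1.01) and Osmr (0.92) in mutant MEF and Ifngr1 (0.50) and Ifngr2 (0.42) in sgPrrx1 MEF.

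In the 2 cell types in which C3 rose, the NF-kB subunit gene Relb was higher, by 1.22 in wound-healing fibroblasts (SE 0.04; edgeR, adjusted p = 1.45e-08) and by 1.50 in MMTV-CAF (SE 0.04; adjusted p = 7.25e-09). Nfkb2 was 0.55 higher in wound-healing fibroblasts, where Irf1 (-1.66) and the shared interleukin-6 receptor subunit Il6st (-1.45) fell. In MMTV-CAF Cebpd, which encodes a C/EBP factor, rose from 71.3, 79.0 and 72.7 CPM to 301, 291 and 295 CPM (1.99, SE 0.04; edgeR, adjusted p = 2.46e-09), and Stat2 (-1.11) fell. These genes are given as values beside those of complement, and their part in them was not tested.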

How the data were processed

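The deposited tables hold whole-number read counts per gene, which the authors made with Trimmomatic 0.39, STAR 2.7.7a and HTSeq 0.12.4 on mm10 from unstranded polyadenylated RNA. The methods then name ComBat-seq batch correction for bulk libraries of mouse and human fibroblasts, and whether the deposited counts had passed it is not stated. Wound-healing columns were matched by elimination, since their names give no cell type. The 3 tables (21 columns, 0 unmapped) were analysed with edgeR 4.0.16 in R 4.3.3 (filterByExpr, TMM, quasi-likelihood test, Benjamini-Hochberg adjustment over all genes tested, threshold 0.05), per table for comparisons with WT and in 1 model of 24447 shared genes between cell types. DESeq2 1.42.0, other scalings and filters, a replicate block and left-out cultures were alternatives. On simulated counts for mutant MEF against WT (13467 genes) 100% of 200 changed genes were recovered and 4.31% of calls were false, and for sgPrrx1 MEF (13444 genes) 100% and 6.10%; for wound-healing fibroblasts (13643 genes) 5.66% and for the difference of MMTV-CAF from wound-healing fibroblasts (14745 genes) 6.13% of calls were false. Among counts of 1 to 20, 54.0% were even. No 2 libraries of a group agreed within counting noise. Members and lists were chosen with earlier results of these data known; from the further complement genes up to 3 falls and 3 rises per comparison with at least 1 CPM in either group were named, from the transcription list up to 2 each way, except that some items of these lists are counted but not reported by name here, and others were named after their values were seen. Per-kb levels used GENCODE exon lengths, and promoters (3 of the 6 genes matched) were RefSeq's for GRCm38.p6. Intervals cover the spread between cultures and floors counting error only.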

Additional observations from a re-analysis of the deposited data

Results flagged for a closer look

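The change with sgPrrx1 differed between cell types for 13 combinations of gene and cell types (edgeR, term for the difference). MMTV-CAF against wound-healing fibroblasts gave -1.63 for C3 (SE 0.17; adjusted p = 1.48e-07), 1.68 for C1ra and -3.98 for Cfb (SE 0.70; adjusted p = 0.000196), the last on at most 20 counts in any wound-healing culture and past the filter only through MMTV-CAF. For Cd55, 1 group of each type was at 0 and only the adjusted p of 1.75e-09 is given. Wound-healing fibroblasts against MEF gave 9.45 for C3 and 3.44 for C1ra, and adjusted p = 0.003 for Cfb, 0.00363 for Serping1 and 9.44e-08 for Cd55, in each of which at least 1 group was at 0. Cfb did not pass the filter in the MEF or wound-healing table, nor Serping1 in the latter, and both were tested here only because the model also held MMTV-CAF, so these 2 values are no support for a difference between the types. Cd55 passed each table only through the group in which it was high, as did Serping1 in MEF, and their values are no support either. MMTV-CAF against MEF gave 7.82 for C3 and 5.13 for C1ra, and adjusted p = 0.000679 for Serping1 and 0.00012 for Cd55. Cfb and Serping1 differed on few counts in MEF and wound-healing fibroblasts.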

How the results depend on the processing

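Of 1330 values of single genes under an alternative, 1291 kept their direction and side of the threshold, 23 lost a call, 10 gained one and 6 changed sign. With at least 10 counts in every culture the calls among the 6 genes were 2 in mutant MEF (4) and 2 in sgPrrx1 MEF (5), since genes at 0 are removed, and those among further complement genes 7 in mutant MEF (11) and 13 in MMTV-CAF (20). In 1 model of all cultures 19 further genes of 27 tested were called in mutant MEF. There 69.2% of all genes were called, against 59.9% in the main fit, and genes could pass the filter through other groups. The sign changes were C4b in wound-healing fibroblasts (0.29) and its difference between MMTV-CAF and MEF (-2.68) with the copies summed, a setting chosen after seeing the data, the Serping1 difference between MMTV-CAF and wound-healing fibroblasts without sgPrrx1 wound culture 2 (0.25, with a range of -1.09 to 0.25 over left-out cultures), the C4b difference between MMTV-CAF and MEF without WT MEF 3 (-0.15) or sgPrrx1 MEF 1 (-0.08, range -0.15 to 1.17), and C1ra between WT wound-healing fibroblasts and WT MEF without WT MEF 3 (0.0090, range -0.15 to 0.0090); the cause was not tested. C4b in mutant MEF passed with DESeq2 (adjusted p = 0.0387), RLE scaling (0.0498) and all cultures in 1 model (0.00429), and without WT MEF 1 (0.0317) or mutant MEF 2 (0.0311), and in sgPrrx1 MEF did not pass without sgPrrx1 MEF 2 (0.054).

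Leaving out 1 culture at a time gave 4 to 5 of the 6 genes in mutant MEF, 4 to 5 in sgPrrx1 MEF, 3 to 4 in sgPrrx1 wound-healing fibroblasts and 6 in sgPrrx1 MMTV-CAF, and 10 to 11, 8 to 9, 14 to 18 and 19 to 20 further genes. Equal replicate numbers did not pair the cultures (correlations of deviations from -0.355 to 0.203). With the replicate number as a block the calls among the 6 genes were 4, 5, 3 and 6 and those among further genes 9, 9, 15 and 19; C1ra in wound-healing fibroblasts then missed the threshold (0.10, adjusted p = 0.0554), and all calls went from 8155 to 6457 in mutant and from 5764 to 6629 in sgPrrx1 MEF. Without WT MEF 2 or sgPrrx1 MEF 2 the latter were 3830 and 3834. Scaling by library totals alone moved the median of all genes by 0.11 for wound-healing fibroblasts and 0.13 for MMTV-CAF, and the share of calls that were higher from 49.3% to 60.3% and from 49.6% to 58.5%. For the differences of wound-healing fibroblasts and MMTV-CAF from MEF that share went from 50.6% to 63.1% and from 48.9% to 60.1%. Genes with few counts in MEF and wound-healing fibroblasts have wide intervals there.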

Other observations

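For each gene the 3 genes with the most similar log2 CPM over the 21 cultures were taken (Pearson's r across cultures of 7 groups that share lines and strains, among 13091 genes, given as a description). C1ra was most like Ifi44 (0.988) and Vcam1 (0.983), an interferon-induced gene and a leukocyte adhesion molecule, and then Fam117a (0.973). C4b was most like Lgals3bp (0.984), Ifit3 (0.980), another interferon-induced gene, and AI607873 (0.980). Cfb was most like Pros1 (0.976), Agmo (0.973) and Parp10 (0.973), and Serping1 like Gfra4 (0.968), Xpnpep2 (0.962) and Uba7 (0.954). C3 was most like Secisbp2l (0.967), Fbxo44 (0.963) and A630023A22Rik (0.957), and Cd55 like Cul7 (0.960), Serpinb8 (0.951) and Slc39a13 (0.943). No gene was named for more than 1 of the 6.

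In RefSeq promoters of 41 of the 56 complement genes a match to the letters of interferon-regulated factors (GAAA, any 2 bases, GAAA) was present in those of Cd46, Cd59a, Vtn and Colec11, against 3.44% of all promoters. No window of these genes held the NF-kB letters, which were present in 1.47% of all promoters. TAATTA was present in the windows of C6, C7 and Hc, and in 5.29% of all promoters. The Cd55 window held no match to any of the 5 sets of letters.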
